A study of Saccharomyces cerevisiae with 12 samples.

Results

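The arrays labelled SO16 were compared directly with the arrays labelled PGM2, names of 2 differently engineered yeast strains in one study of galactose use. The second label is in conflict with the level of its own gene. PGM2 was lowest of the series on those arrays, at 10.49 and 10.87, against 12.14 and 12.11 on REF. The comparison rests on 4 of the 12 arrays of the series, chosen by their titles, and on 5449 budding yeast genes, each read by its brightest probe set. The labels give only the strain names. The study's own description, known from outside these files, has the genes GAL80, MIG1 and GAL6 (now LAP3) deleted in SO16, and PGM2 overexpressed in the strain of that name. The remaining 8 arrays, labelled E62A, E62B and E62C for mutants evolved on galactose and REF for the study's reference strain, have 2 arrays each. They do not enter the difference, and share in the estimate of the spread between replicates. Every sample carries the background CEN.PK113-7D, a laboratory strain of budding yeast, and was grown in minimal galactose medium in a fermenter at pH 5.0 and harvested at mid-exponential phase. Whether the 2 arrays under one label stem from independent cultures is not recorded, so p-values speak only to array-to-array spread, possibly technical.

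Budding yeast takes up galactose through the permease Gal2 and turns it into glucose 1-phosphate with the enzymes Gal1, Gal7 and Gal10 of the Leloir pathway, after which phosphoglucomutase makes glucose 6-phosphate for glycolysis. The activator Gal4 drives these genes, Gal80 holds Gal4 inactive, and Gal3 relieves that hold when galactose is present. The repressor Mig1 shuts many genes for other carbon sources when glucose is plentiful. The SO16 strain lacks brakes on the regulatory side of this system, whereas the PGM2 label names its last enzymatic step.

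Levels are log2 signals summarised by robust multi-array averaging (RMA), in which a difference of 1 is a doubling of signal. Differences are SO16 minus PGM2 with the standard error (SE) of a limma fit, 2 arrays per label, and a gene is said to be higher or lower where its Benjamini-Hochberg adjusted p over all genes was under 0.05. Array medians lay between 6.72 and 6.89. A level of 6.0, the 95th percentile of 1746 fission yeast probe sets on the same array, was taken as background. SO16-2 and E62C-2 stood apart in their controls. Hybridisation control probe sets averaged 12.2 on SO16-1 and 9.72 on SO16-2, and the second of these is below the 10.8 to 12.2 of 10 other arrays, with E62C-2 at 9.73. Ribosomal RNA probe sets averaged 11.5 on SO16-2, against 8.84 to 10.3 on those 10 arrays, with E62C-2 at 11.9. Counts are therefore also given without SO16-2.

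The genes named by the strains were read first. GAL80, the inhibitor of Gal4, lay at 6.29 and 6.04 on the SO16 arrays, against 11.50 and 11.60 on the PGM2 arrays. The difference was -5.39 ± 0.08, or 41.8-fold lower on SO16 (adjusted p = 5.41e-12). LAP3, a cysteine peptidase, lay at 5.72 and 5.87 on SO16, against 11.10 and 10.99 on PGM2. MIG1 lay at 5.84 and 5.62 on SO16, against 9.02 and 9.09 on PGM2. Both genes were below background on both SO16 arrays, so their folds are bounds, taken from the background level where the signal was lower. LAP3 was at least 32.9-fold lower (adjusted p = 5.41e-12) and MIG1 at least 8.29-fold lower (adjusted p = 4.44e-10). All 3 genes of the SO16 label were thus at or near background there.

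PGM2, the major phosphoglucomutase, went the other way from its label. Its level was 11.75 and 11.62 for SO16, against 10.49 and 10.87 for the arrays labelled PGM2, and both groups were below the REF levels of 12.14 and 12.11. The difference was 1.01 ± 0.11, or 2.01-fold higher on SO16 (adjusted p = 0.00054), and it passed with each of the 4 arrays left out in turn. The highest levels of the series, 13.43 and 13.19, were on the arrays labelled E62C. The library labelled PGM2 is therefore named by its label here, and any direction drawn from that label carries this conflict. PGM1, the minor phosphoglucomutase, lay at 9.72 and 9.75 on SO16, against 9.69 and 9.86 on PGM2 (-0.04 ± 0.08, adjusted p = 0.867). URA3, a common selection marker, lay at 9.57 and 9.72 on SO16, against 9.65 and 9.62 on PGM2. On the arrays labelled E62C, where PGM2 was highest, URA3 was at 12.12 and 12.34, against 9.73 and 9.79 on REF. Whether the labels PGM2 and E62C belong to the strains they name was not tested, and if they do not, each difference printed here is one between SO16 and another strain.

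**Figure D1:**
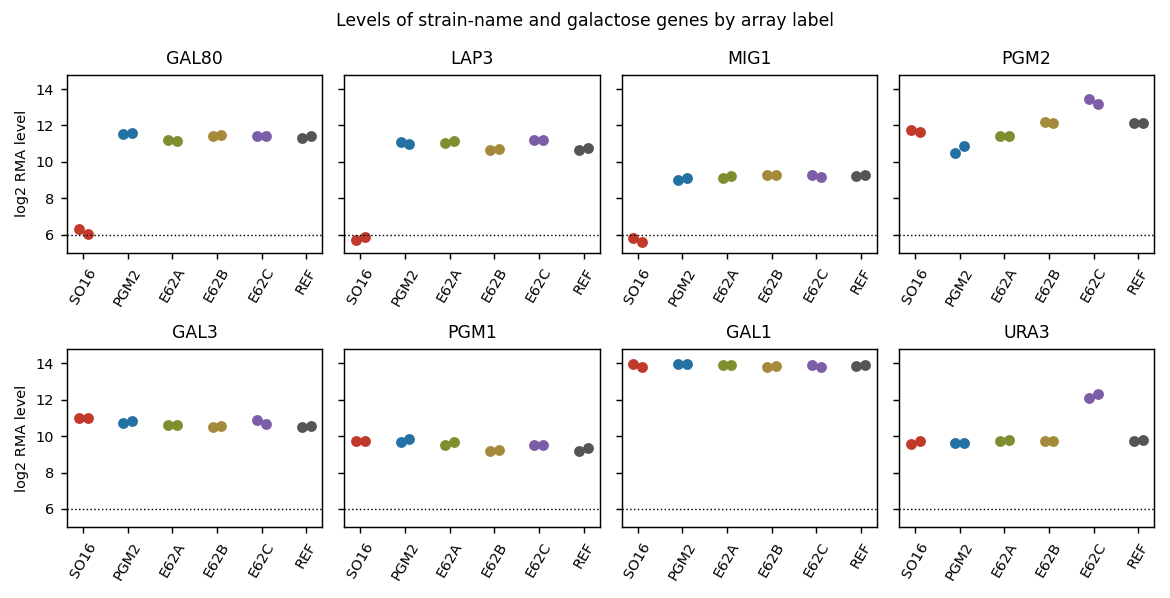
Log2 level (vertical axis, 1 point per array) of 8 genes by array label, with the background level of 6.0 dotted. GAL80, LAP3 and MIG1 are near background on the SO16 arrays alone, PGM2 is lowest on the arrays labelled PGM2, and GAL1 is near the top of the scale on every array.

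No enzyme of the Leloir pathway passed the test. GAL1, the galactokinase, lay at 13.99 and 13.80 on SO16, against 13.96 and 13.97 on PGM2. GAL2, GAL7 and GAL10 differed by -0.02 ± 0.09, 0.03 ± 0.08 and -0.13 ± 0.09, all near the top of the scale, where a difference can be understated. GAL3 lay at 11.02 and 11.02 on SO16, against 10.73 and 10.86 on PGM2, and its groups did not overlap, yet its difference of 0.23 ± 0.08 did not pass (adjusted p = 0.156). UGP1, which supplies UDP-glucose to the pathway, differed by 0.27 ± 0.09 (adjusted p = 0.131). Of 10 pathway genes measured, 1 was higher (PGM2) and 2 were lower (GAL80 and LAP3), beside 1.17% and 2.22% of all genes. Both lower genes are deleted in SO16, so their calls follow from the strain. GAL4 is not named for a probe set in the tables used here. Of 5 other Gal4 targets, 2 were higher and none lower, against the same shares. They were PCL10, a cyclin of glycogen control, at 0.48 ± 0.08 (adjusted p = 0.00447), and MTH1, a regulator of hexose transporter genes, at 0.38 ± 0.07 (adjusted p = 0.0168). Without PGM2-1 neither passed, at 0.0655 and 0.181.

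Across all 5449 genes, 185 differed, or 3.4%. Of these 64 were higher on SO16 (1.17%) and 121 lower (2.22%). In all 185 the 4 arrays of the pair of labels did not overlap. A call itself favours genes whose arrays lie apart, so this adds no support to the calls. The median difference of all genes was -0.0048. Most differences were modest, with a median of 0.55 among the higher genes and -0.50 among the lower ones, and 18 genes reached 1 on the log2 scale, 9 in each direction. The split depended on the scaling, since 34.6% of called genes were higher in the deposited values, 47.2% after quantile normalization and 68.7% with each array centred on its median. Without SO16-2, 369 genes were called (6.77%), 47 higher (0.863%) and 322 lower (5.91%), and 149 of the 185 were among them. Without SO16-1, 180 were called (3.3%), 102 higher (1.87%) and 78 lower (1.43%). Leaving out PGM2-1 gave 89 genes and PGM2-2 gave 116. The smallest two-sided p of an exact permutation test of 2 arrays against 2 is 0.333, and the calls depend on pooling the spread across genes and labels.

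The REF arrays, which do not enter the difference, place the 2 labels. Of the 121 genes lower on SO16, 54 were above REF under both labels, 7 were below it under both, and in 60 the REF mean lay between the labels. For 90 of the 121 the PGM2 mean was farther from REF than the SO16 mean. Of the 64 genes higher on SO16, 16 were above REF under both labels, 25 below it under both and 23 had REF between. The PGM2 mean was farther from REF for 34 of these 64 and the SO16 mean for 30. These positions are descriptions of mean levels.

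The largest difference upward was that of HXT17, which encodes a member of the hexose transporter family. It lay at 10.08 and 10.01 on SO16, against 7.29 and 7.74 on PGM2, with REF at 10.35 and 10.41. The difference was 2.53 ± 0.18, or 5.78-fold (adjusted p = 1.96e-05). DSF1, a mannitol dehydrogenase homologue, lay at 9.68 and 9.63 on SO16, against 8.10 and 8.29 on PGM2 (1.46 ± 0.10, adjusted p = 2.2e-05). In both genes the SO16 arrays were close to REF and the PGM2 arrays were low, and both probe sets are shared with near-identical genes, which they cannot tell apart. The maltose genes MAL32, a maltase read by a shared probe set, and MAL11, a maltose transporter, were also higher, by 0.89 ± 0.08 (adjusted p = 9.71e-05) and 0.87 ± 0.10 (adjusted p = 0.000443).

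Several other genes with large upward differences belong to energy metabolism and to regulation. CYC7, the minor isoform of cytochrome c, lay at 8.76 and 9.06 on SO16, against 7.65 and 7.98 on PGM2 (1.10 ± 0.16, adjusted p = 0.00224). RGI1, a protein of energy metabolism under respiratory growth, lay at 12.02 and 12.06 on SO16, against 11.05 and 11.16 on PGM2 (0.94 ± 0.06, adjusted p = 1.96e-05). Both are below REF under both labels, since REF was at 9.83 and 9.63 for CYC7 and at 12.31 and 12.26 for RGI1. MRK1, a protein kinase related to glycogen synthase kinase 3, was higher by 1.18 ± 0.16 (adjusted p = 0.00149) and NCA3, a protein linked to mitochondrial ATP synthase expression, by 1.14 ± 0.09 (adjusted p = 3.98e-05). YMR206W, an uncharacterised reading frame, was higher by 1.34 ± 0.12 and EGO4 by 1.16 ± 0.17 (adjusted p = 0.000137 and 0.0031). HSP30, a membrane protein induced by stress, was higher by 0.82 ± 0.11 (adjusted p = 0.00119), at 9.94 and 10.03 on SO16, against 9.18 and 9.16 on PGM2. All of these genes passed with each array left out.

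Downward, beside the 3 deleted genes, YLL053C and its neighbour AQY2, an aquaporin gene, were among the genes with the largest differences. AQY2 lay at 7.97 and 8.14 on SO16, against 9.46 and 9.18 on PGM2 (-1.27 ± 0.10, adjusted p = 6.94e-05), and YLL053C at 9.09 and 9.38 on SO16, against 10.67 and 10.38 on PGM2 (-1.29 ± 0.12, adjusted p = 0.000184). REF was near the PGM2 levels, at 9.19 and 9.20 for AQY2. The 2 frames adjoin on chromosome XII of assembly R64 and in some strains form one reading frame. PDR12, an exporter of weak organic acids, was lower by 0.91 on the log2 scale (-0.91 ± 0.12, adjusted p = 0.00107), and ATO2, an ammonium exporter family member, differed by -0.92 ± 0.13 (adjusted p = 0.00261). YAR068W, an uncharacterised frame, differed by -1.09 ± 0.10 (adjusted p = 0.000137).

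**Figure D2:**
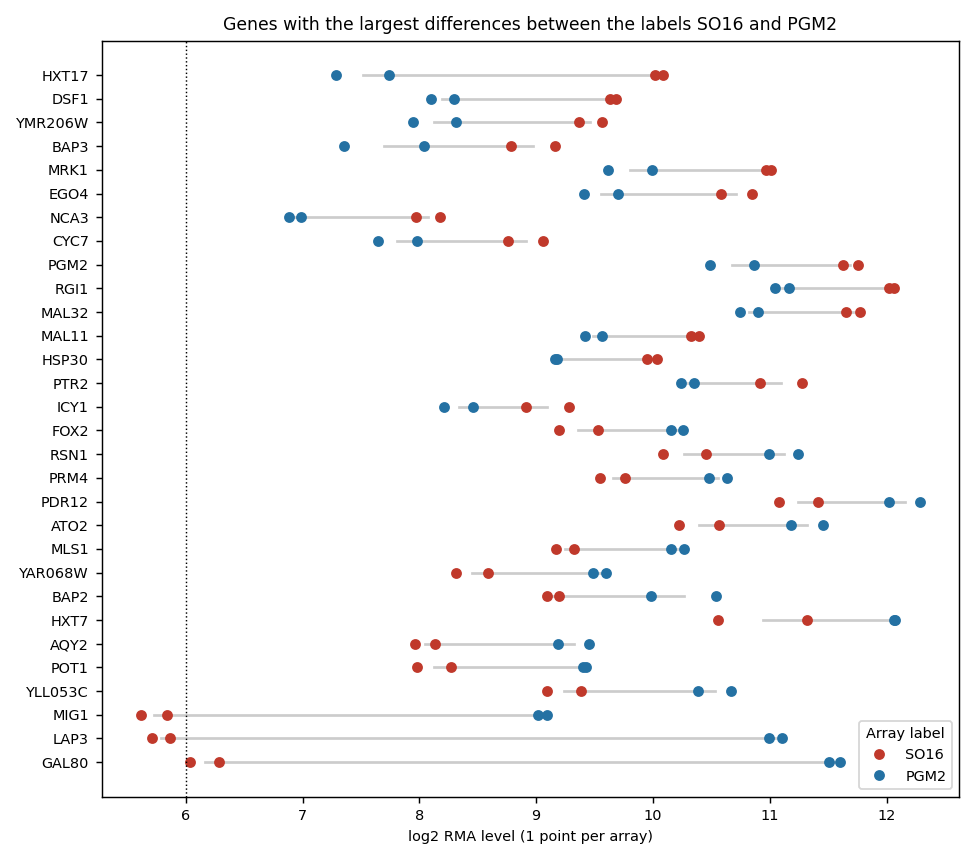
Log2 level (horizontal axis, 1 point per array) of the 15 genes with the largest upward and the 15 with the largest downward difference, ordered from the largest SO16 excess at the top, with the background of 6.0 dotted. Only called genes whose arrays do not overlap were drawn, so the red SO16 points and the blue PGM2 points are apart in every row. HXT17 differs by 2.53.

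Transporters for hexoses and amino acids differed in both directions within a family. Of 18 hexose transporter and sensor genes, 2 were higher (HXT17 and MTH1) and 4 lower, beside 1.17% and 2.22% of all genes. HXT7, a high-affinity transporter gene whose probe set is shared, lay at 10.56 and 11.32 on SO16, against 12.06 and 12.07 on PGM2, with REF at 12.70 and 12.56 (-1.13 ± 0.18, adjusted p = 0.00394). HXT2 lay at 7.23 and 7.60 on SO16, against 8.33 and 8.06 on PGM2 (-0.78 ± 0.16, adjusted p = 0.0223), which did not pass without SO16-1 (0.0958) or PGM2-1 (0.206). The other 2 lower members were HXT5 (-0.56 ± 0.13) and HXT14 (-0.34 ± 0.08). The HXT5 call ended without SO16-1 (adjusted p = 0.11), PGM2-1 (0.193) or PGM2-2 (0.141), and the HXT14 call without SO16-1 (0.122) or PGM2-1 (0.365). The list had 5 lower members without SO16-2 and 1 without SO16-1 or PGM2-1.

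Of 19 permeases under the SPS sensor of external amino acids, 3 were higher and 2 lower, beside 1.17% and 2.22% of all genes. BAP3 and BAP2 both import branched-chain amino acids. BAP3 lay at 8.78 and 9.16 on SO16, against 8.04 and 7.35 on PGM2 (1.27 ± 0.18, adjusted p = 0.0025). BAP2 lay at 9.09 and 9.19 on SO16, against 10.54 and 9.98 on PGM2 (-1.12 ± 0.17, adjusted p = 0.00319). The 2 paralogues thus differed in opposite directions, and the PGM2 arrays were above REF for both, where BAP2 had 9.47 and 9.24 and BAP3 7.04 and 6.94. AGP1, a general amino acid permease, was higher by 0.69 ± 0.14 (adjusted p = 0.018), and PTR2, the peptide transporter, by 0.80 ± 0.15 (adjusted p = 0.0152). The AGP1 call ended without SO16-2 (0.0515) or PGM2-2 (0.11), and the PTR2 call without SO16-2 (0.0518), PGM2-1 (0.0717) or PGM2-2 (0.0885). MUP1, a methionine permease, was the other lower member, at -0.36 ± 0.08, and did not pass without SO16-1 (0.125), PGM2-1 (0.245) or PGM2-2 (0.118). The list had 5 lower members without SO16-2, and 1 higher member without SO16-2 or PGM2-2.

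Many enzymes of fatty acid breakdown were lower on SO16 than on PGM2. Peroxisomes of yeast hold the whole beta-oxidation pathway, which oleate induces and glucose represses. Of 16 beta-oxidation genes measured, 7 were lower and none higher, beside 2.22% and 1.17% of all genes. The median difference was -0.31, against -0.0048 for all genes. Their median level against REF was -0.07 on SO16 and 0.24 on PGM2. POT1, the thiolase of the last step, lay at 7.98 and 8.27 on SO16, against 9.42 and 9.40 on PGM2, with REF between at 8.86 and 9.11 (-1.29 ± 0.11, adjusted p = 9.71e-05). FOX2, the multifunctional enzyme, lay at 9.19 and 9.53 on SO16, against 10.16 and 10.26 on PGM2 (-0.85 ± 0.10, adjusted p = 0.000746). SPS19, a dienoyl-CoA reductase, differed by -0.67 ± 0.07 (adjusted p = 0.000305), and POX1, the acyl-CoA oxidase of the first step, by -0.65 ± 0.10 (adjusted p = 0.00316). These 4 passed with every array left out. TES1, PXA2 and FAA2 differed by -0.50 ± 0.10, -0.43 ± 0.09 and -0.35 ± 0.07, and none of these passed without SO16-1 (adjusted p = 0.0842, 0.0776 and 0.0617) or PGM2-2 (0.126, 0.116 and 0.108). PXA2 and FAA2 also failed without PGM2-1 (0.0538 and 0.114). The list had 4 lower members without SO16-1, 9 without SO16-2, 5 without PGM2-1 and 4 without PGM2-2.

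The targets of Cat8 and Adr1, activators of growth on ethanol, acetate and glycerol, leaned the same way. Of 20 genes, 6 were lower and none higher, beside 2.22% and 1.17% of all genes, with a median of -0.24. Their median level against REF was 0.22 on SO16 and 0.38 on PGM2. MLS1, malate synthase of the glyoxylate cycle, lay at 9.17 and 9.32 on SO16, against 10.26 and 10.15 on PGM2 (-0.96 ± 0.11, adjusted p = 0.000464). ADH2, the alcohol dehydrogenase that oxidises ethanol, lay at 7.49 and 7.62 on SO16, against 8.42 and 8.20 on PGM2 (-0.75 ± 0.09, adjusted p = 0.00107), and IDP2, the cytosolic isocitrate dehydrogenase, differed by -0.74 ± 0.08 (adjusted p = 0.000588). In MLS1 and IDP2 the SO16 arrays were close to REF, which was at 8.98 and 9.15 for MLS1, and the PGM2 arrays were above it. PCK1, of gluconeogenesis, differed by -0.73 ± 0.16 (adjusted p = 0.0297), SFC1 by -0.56 ± 0.13 (0.0493) and ALD4, a mitochondrial aldehyde dehydrogenase, by -0.46 ± 0.09 (0.0131). The PCK1 and SFC1 calls ended with any of the 4 arrays left out, with adjusted p of 0.0546 to 0.146 for PCK1 and 0.073 to 0.365 for SFC1, and the ALD4 call without SO16-1 (0.0618) or PGM2-2 (0.0939). ICL1, the partner of MLS1 in the glyoxylate cycle, did not pass (-0.22 ± 0.10, adjusted p = 0.268). The list had 3 lower members without SO16-1, 6 without SO16-2 and 4 without either PGM2 array.

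Genes repressed through Mig1 were examined because MIG1 read below background under the SO16 label. Of 16 measured, 2 were higher, 1 was lower and 13 did not pass, beside 1.17% higher and 2.22% lower among all genes. The median was 0.15. Their median level against REF was 0.07 on SO16 and 0.08 on PGM2, so by this measure SO16 was not above PGM2. MAL32, described above, was higher by 0.89, and CAT8, the activator gene itself, by 0.37 ± 0.09 (adjusted p = 0.0476). The CAT8 call ended without SO16-2 (0.117), PGM2-1 (0.364) or PGM2-2 (0.077). HXT2 was the lower member. SUC2, the invertase that is the textbook target of Mig1, lay at 10.31 and 10.50 on SO16, against 10.41 and 10.82 on PGM2, and the groups overlapped (-0.21 ± 0.12, adjusted p = 0.398). Without SO16-1 the list had 3 higher members and none lower, without SO16-2 or PGM2-2 it had 1 higher and 2 lower, without PGM2-1 it had 1 higher, and after median centring 5 were higher and 1 lower.

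Several mating genes were lower on SO16 than on PGM2. Haploid cells of mating type a carry a surface receptor for alpha factor and switch on fusion genes in response. The a-specific gene STE2 read 11.81 and 11.82 on SO16, against 12.01 and 11.87 on PGM2, and the alpha-specific gene MF(ALPHA)1 read 7.43 and 7.77 on SO16, against 7.90 and 7.93 on PGM2. Of 23 pheromone response and fusion genes, 8 were lower and 1 was higher, beside 2.22% and 1.17% of all genes. The median difference was -0.18, and the median level against REF was -0.12 on SO16 and 0.21 on PGM2. FUS1, needed for cell fusion, lay at 9.0 and 9.13 on SO16, against 9.90 and 9.88 on PGM2 (-0.83 ± 0.08, adjusted p = 0.000137). AGA1, an anchor of the agglutinin of a cells, lay at 8.86 and 9.11 on SO16, against 9.71 and 9.83 on PGM2 (-0.79 ± 0.10, adjusted p = 0.000956). PRM4 lay at 9.76 and 9.55 on SO16, against 10.63 and 10.47 on PGM2 (-0.90 ± 0.09, adjusted p = 0.000248). PRM5 differed by -0.67 ± 0.10 (adjusted p = 0.0025), and it was above REF under both labels. PRM1 and PRM8 were lower by 0.65 and 0.45 on the log2 scale (-0.65 ± 0.11 and -0.45 ± 0.08), calls that ended without PGM2-2 (adjusted p = 0.0687 and 0.0802).

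Among the other members, FIG1 (-0.41 ± 0.08, adjusted p = 0.0153) and FIG2 (-0.41 ± 0.09, 0.0395) were lower, and FAR1, which arrests the cell cycle in the response, was higher (0.43 ± 0.10, 0.0469). The FIG1 call ended without SO16-1 (0.0528), PGM2-1 (0.101) or PGM2-2 (0.0804), the FIG2 call without SO16-1 (0.109) or PGM2-2 (0.191), and the FAR1 call without SO16-1 (0.0918), SO16-2 (0.0817) or PGM2-2 (0.221). The list had 6 lower members without SO16-1, 10 without SO16-2, 7 without PGM2-1 and 4 without PGM2-2. Of 7 genes specific to mating type a, 2 were lower and 1 was higher, beside 2.22% and 1.17% of all genes. BAR1, the protease that degrades alpha factor, lay at 10.53 and 10.66 on SO16, against 11.40 and 11.26 on PGM2 (-0.73 ± 0.08, adjusted p = 0.000337), and passed with every array left out. AGA2, the agglutinin subunit, was lower by 0.35 on the log2 scale (-0.35 ± 0.08, adjusted p = 0.0307) and MFA2, a precursor of a-factor, higher by 0.29 ± 0.07 (0.0435). The AGA2 call ended without SO16-2 (0.0773), PGM2-1 (0.177) or PGM2-2 (0.116), and the MFA2 call without SO16-1 (0.0996), SO16-2 (0.0506), PGM2-1 (0.0639) or PGM2-2 (0.21). Of the 4 genes specific to mating type alpha, none was called by limma and the median was -0.12. Without SO16-1 the median was 0.02, and without SO16-2 it was -0.23 with 1 lower member.

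**Figure D3:**
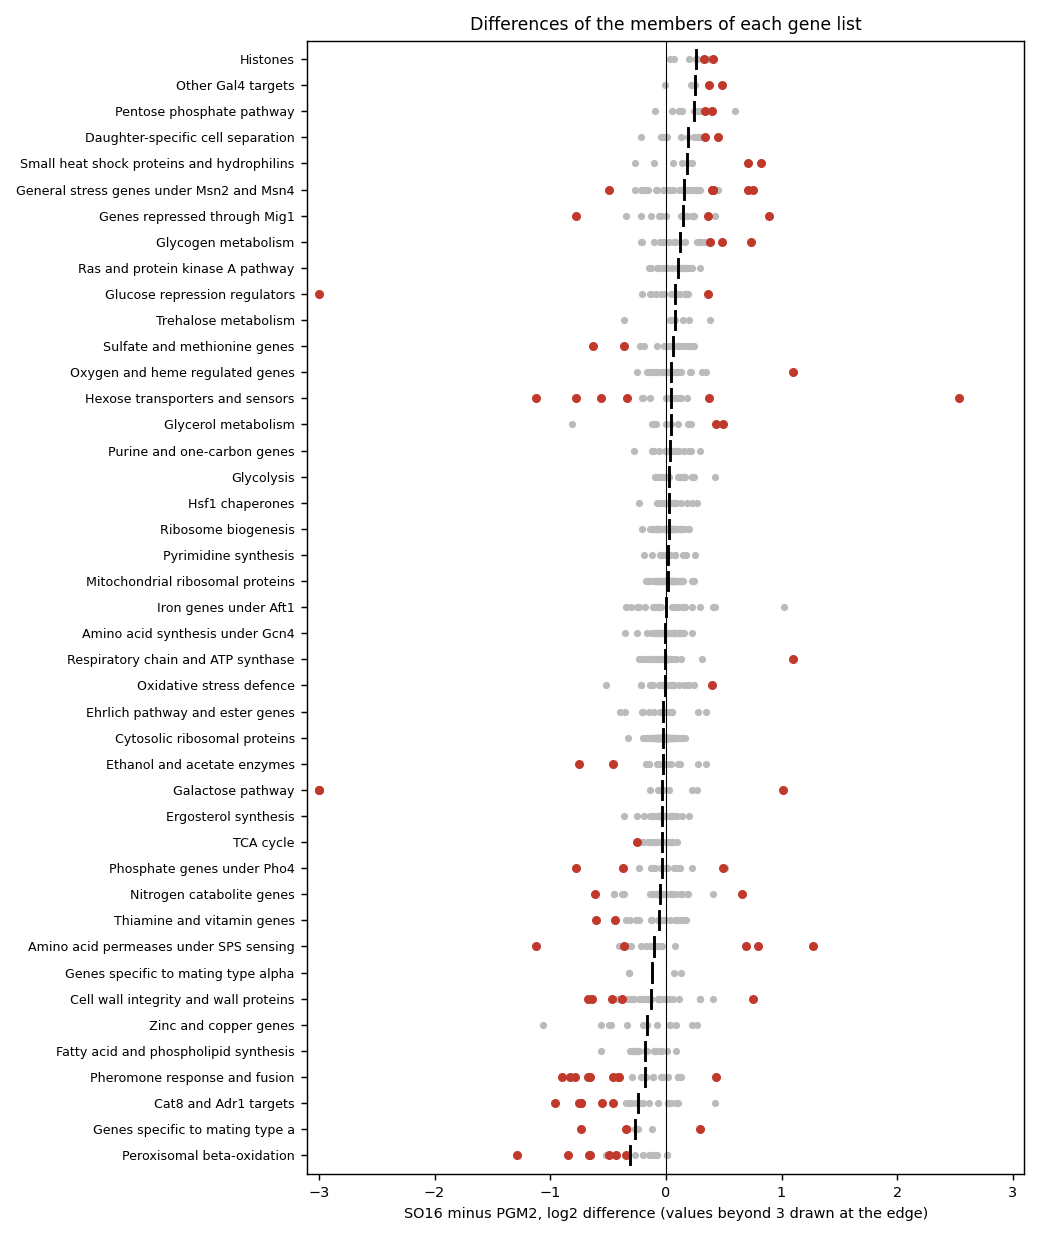
Difference SO16 minus PGM2 (horizontal axis, log2) of every measured member of 43 gene lists, 1 row per list ordered by the median, with called members in red, others in grey and the median as a black bar. Beta-oxidation genes lie lowest with a median of -0.31, and the histones highest with 0.26.

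Genes of stress and storage mostly had positive differences, of which few passed. Of 30 general stress genes under Msn2 and Msn4, 5 were higher and 1 was lower, beside 1.17% and 2.22% of all genes. Their median was 0.16, and 21 of the 30 differences were positive, against 2631 of all 5449. The median was 0.06 without SO16-2, the array with weak hybridisation controls, and 0.24 without SO16-1. Their levels were far below REF under both labels, by a median of 0.73 on SO16 (-0.73) and 0.95 on PGM2 (-0.95). PIR3, a cell wall protein, was higher by 0.75 ± 0.10 (adjusted p = 0.0012) and passed with every array left out. HSP26, a small heat shock protein, lay at 9.77 and 9.997 on SO16, against 9.21 and 9.14 on PGM2 and 12.58 and 12.66 on REF (0.71 ± 0.12, adjusted p = 0.00646), and its call ended without PGM2-2 (0.0557). DCS2, FMP16 and HSP31 were higher by 0.41, 0.40 and 0.40, and YGP1 was lower (-0.49 ± 0.11, adjusted p = 0.0304), and none of the 4 passed without PGM2-1 (0.0714, 0.203, 0.118 and 0.209). FMP16 and HSP31 also failed without SO16-2 (0.0554 and 0.113), HSP31 and YGP1 without PGM2-2 (0.189 and 0.0882), and YGP1 without SO16-1 (0.109). HSP12, another small heat shock protein, did not pass (0.18 ± 0.15). The list had 6 higher members without SO16-1, 3 without SO16-2, 2 without PGM2-1 and 3 without PGM2-2.

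Glycogen genes showed 3 of 19 higher and none lower, beside 1.17% and 2.22% of all genes, with a median of 0.12. GLC3, the branching enzyme, lay at 10.75 and 10.86 on SO16, against 9.97 and 10.16 on PGM2 and 11.66 and 11.67 on REF (0.74 ± 0.08, adjusted p = 0.000337), and passed with every array left out. PCL10 is described above. GPH1, glycogen phosphorylase, was higher by 0.38 ± 0.08 (adjusted p = 0.026), and failed without SO16-2 (0.0689) or PGM2-1 (0.239). The list had 6 higher members without SO16-1, 3 without SO16-2, 1 without PGM2-1 and 3 without PGM2-2.

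**Figure D4:**
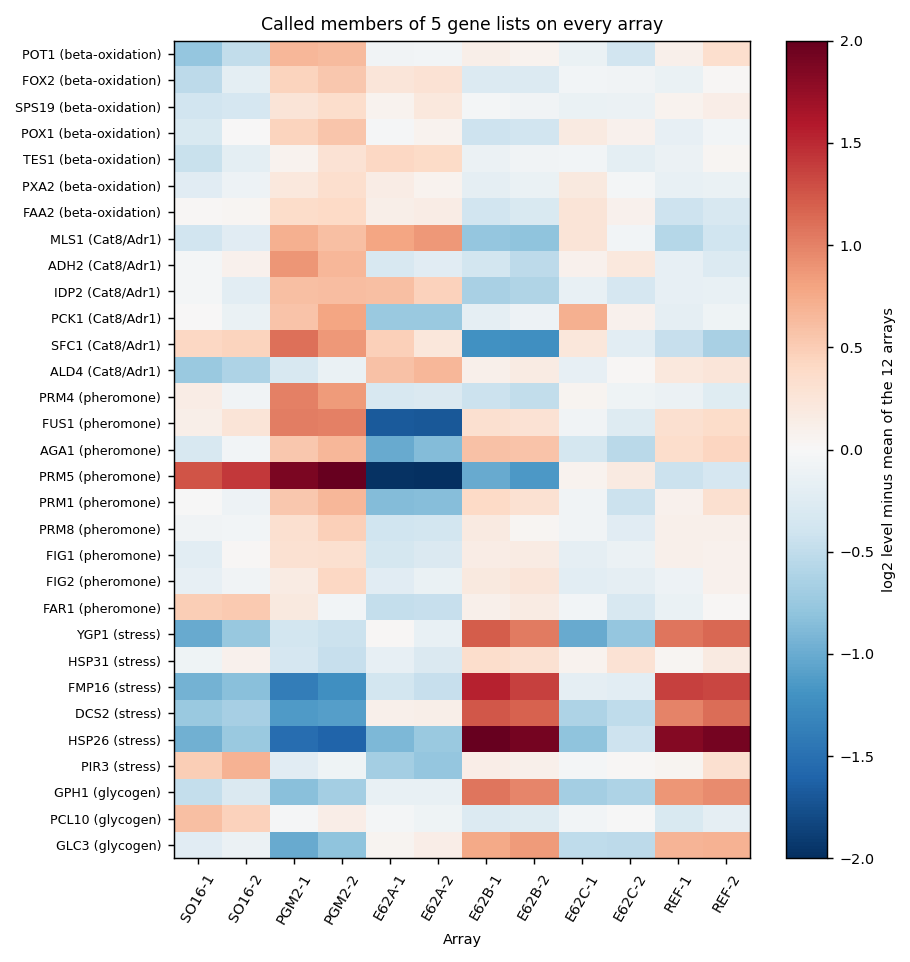
Log2 level minus its mean over the 12 arrays (colour, from blue at -2 to red at 2) of the called members of 5 gene lists, with arrays in columns from SO16 at the left to REF at the right. The first 4 columns show the beta-oxidation and Cat8 and Adr1 genes, and the mating genes except FAR1, lower on both SO16 arrays than on the PGM2 arrays, and HSP26 and FMP16 low under both labels. Only called genes were drawn, and their SO16 and PGM2 arrays do not overlap, so this separation follows from the choice of genes.

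The values of paralogues that yeast uses under different conditions are set side by side here. CYC1, the major cytochrome c, lay at 13.40 and 13.39 on SO16, against 13.31 and 13.43 on PGM2 (0.02 ± 0.07, adjusted p = 0.909), beside the 1.10 of CYC7. ADH1, the fermentative alcohol dehydrogenase, differed by -0.01 ± 0.06 (adjusted p = 0.946), beside -0.75 for ADH2. CYC1 and ADH1 lie above 13, where the scale may compress differences, though this was not tested. Their small values therefore do not show that they differed less than their paralogues. Of 11 pentose phosphate genes, 2 were higher and none lower, beside 1.17% and 2.22% of all genes. In the oxidative branch, the major isoforms SOL3 and GND1 were higher by 0.40 ± 0.07 (adjusted p = 0.00661) and 0.34 ± 0.06 (0.0152), while the minor isoforms SOL4 (0.14 ± 0.11) and GND2 (0.24 ± 0.11) did not pass. The SOL3 call ended without PGM2-2 (0.06), and the GND1 call without SO16-1 (0.0557), PGM2-1 (0.0633) or PGM2-2 (0.0939). RGI2, the paralogue of RGI1, was higher by 0.62 ± 0.12 (adjusted p = 0.0174), and failed without SO16-1 (0.0646) or PGM2-1 (0.161). GSY1 and GSY2, the glycogen synthases, differed by 0.39 ± 0.11 and 0.03 ± 0.07, and neither passed. No test of the difference between paralogues was made.

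The 10 histone genes all had positive differences, beside 2631 of all 5449 genes, with a median of 0.26. Of the 10, 2 were higher, beside 1.17% of all genes. HHT1 was higher by 0.41 ± 0.08 (adjusted p = 0.0241) and HTB2 by 0.33 ± 0.07 (0.0265), calls that ended without SO16-1 (0.0714 in both) or PGM2-1 (0.205 and 0.247). Their median level was -0.12 against REF on SO16 and -0.40 on PGM2. Among 34 cell wall genes 4 were lower and 1 was higher, beside 2.22% and 1.17% of all genes. YPS1, a protease of the cell surface, differed by -0.46 ± 0.07 (adjusted p = 0.00319) with all arrays. UTR2, a chitin transglycosylase, differed by -0.64 ± 0.12 (adjusted p = 0.0146), and failed without PGM2-1 (0.133) or PGM2-2 (0.0541). The wall list had 4 lower members without SO16-1, 8 without SO16-2 and 2 without either PGM2 array.

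Few genes were called in the lists for other nutrients. PUT1, the proline oxidase, lay at 9.09 and 9.07 on SO16, against 9.68 and 9.70 on PGM2 (-0.61 ± 0.08, adjusted p = 0.0012), and passed in each leave-out. PHO89, a phosphate transporter, differed by -0.78 ± 0.12 (adjusted p = 0.00405; without PGM2-1 0.0538), and SUL1, the sulfate permease, by -0.63 ± 0.12 (0.0148; without SO16-1 0.0696 and without PGM2-1 0.158). OPT2, an oligopeptide transporter, was higher by 0.66 ± 0.11 (adjusted p = 0.00836; without PGM2-1 0.0886).

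Other lists held few calls, beside 1.17% higher and 2.22% lower over all genes. Lists with 1 or 2 called members and none in the other direction were ethanol and acetate enzymes (2 of 15 lower), sulfate and methionine genes (2 of 24 lower), thiamine and vitamin genes (2 of 19 lower), the TCA cycle (1 of 20 lower), glycerol metabolism (2 of 11 higher), daughter-specific cell separation (2 of 11 higher), small heat shock proteins (2 of 9 higher), and with 1 higher each the respiratory chain (37 genes), oxygen and heme genes (26) and oxidative stress defence (25). Glucose repression regulators (19 genes) and nitrogen catabolite genes (31) had 1 in each direction, and phosphate genes under Pho4 (20) had 1 higher and 2 lower. The lower glucose repression regulator was MIG1, a gene deleted in SO16, so that call follows from the strain. The ethanol and acetate, small heat shock, respiratory chain, and oxygen and heme lists kept at least 1 call with each array left out. These lists share members with others. The lower ethanol and acetate enzymes are ADH2 and ALD4, already counted among the Cat8 and Adr1 targets. CYC7 is the higher gene of both the respiratory chain and the oxygen and heme lists. The TCA cycle had none in any leave-out, and the sulfate, thiamine, glycerol, daughter-specific and oxidative stress lists had none without PGM2-1. A single call among 20 to 37 genes is near the share over all genes and is not read as a result about its list.

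In all, 16 of the 43 lists held no called gene by limma, 496 list entries together, with list medians from -0.18 to 0.10. Among them were glycolysis with 19 genes, ergosterol synthesis with 28, amino acid synthesis under Gcn4 with 43, iron genes under Aft1 with 24, 128 cytosolic and 66 mitochondrial ribosomal proteins and 53 ribosome biogenesis genes. Without SO16-2, 7 of these 16 lists had a lower member, 8 list entries in all, of which ergosterol synthesis held 2. After quantile normalization the 16 lists held 7 higher and 3 lower entries, and after median centring 11 higher, glycolysis with 2 higher under both. Over all genes, 937 had an unadjusted p under 0.05, and array weights called 104 genes in all.

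**Figure D5:**
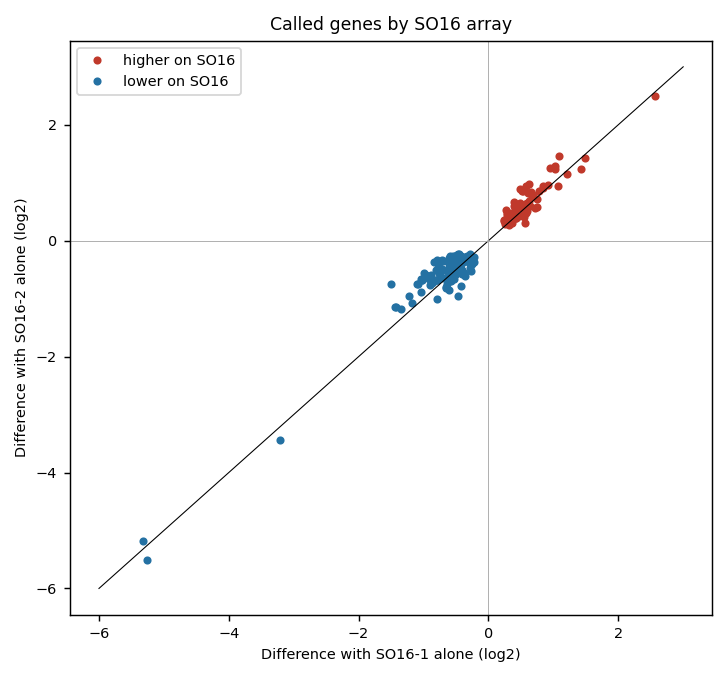
Difference SO16 minus PGM2 (log2) of the 185 called genes with SO16-1 alone (horizontal axis) and SO16-2 alone (vertical axis), each against both PGM2 arrays, red for genes higher and blue for genes lower on SO16, with the line of equal values. Since the arrays of the 2 labels do not overlap in any of the 185 genes, each point must lie in the quadrant of its own sign. The distance from the line shows how far SO16-1 and SO16-2 differ in size.

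The count, and the balance of higher and lower calls given above, depended on single arrays. Of the 185 genes, 120 passed without SO16-1, 149 without SO16-2, 87 without PGM2-1 and 102 without PGM2-2, and 73 passed in all 4 cases, 27 higher and 46 lower. The spread of the 5449 differences, as a standard deviation, was 0.183 between the SO16 arrays and 0.181 between the PGM2 arrays, against 0.229 to 0.257 between arrays of the 2 labels.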

How the data were processed

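The authors deposited a table of log2 values for 10928 probe sets on 12 Affymetrix yeast arrays, and per the submitters' processing notes they used RMA and affy. Versions, and anything done beyond this, were not given in the sources used here. This method equalises the arrays, so a shift of all transcripts is removed. Total RNA was labelled with biotin, per the labels' protocols. An array has no count depth, and the number of arrays limits the precision.

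By the platform annotation, 7244 probe sets carry 1 symbol, 1 carries several and 3683 carry none. Names were updated through assembly R64, 5498 probe sets matched a budding yeast gene, and the brightest per gene left 5449. Of these, 114 are shared between transcripts by name and 109 genes had a mean below background. The test was limma (version 3.58.1, R 4.3.3; functions lmFit, contrasts.fit and eBayes) with 1 mean per group over the 12 arrays, 6 residual and 4.97 prior degrees of freedom, a median residual standard deviation of 0.0841 and a threshold of 0.05. Both the pair of labels and the gene lists were chosen with earlier results of these data known, so lists are described by counts and medians without a test. Named genes were the 15 with the largest difference in each direction, the galactose genes, up to 6 called members of each list, 2 of the largest where none was called, and paralogue pairs. FIG1, FIG2, FAR1 and the genes in the closing observations were looked up after their values were seen. SUC2, ICL1, HSP12 and FAA2 also fall outside the rule for named genes. Sequences and promoter motifs were not used here.

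In 10 simulations with 200 changed genes among 5449, 80.7% of differences of 0.5, 98.7% of 1 and 99.8% of 2 were recovered, with 5.40% of calls false. The simulated noise was independent between genes and arrays, with no array standing apart as SO16-2 does. These rates therefore check the code and do not carry over to the data. Replicate numbers came from the labels. Figures were drawn with matplotlib 3.10.9.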

Additional observations from a re-analysis of the deposited data

Results flagged for a closer look

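Probe sets for reporter constructs on the array, 47 in all, lie outside the genes tested, and 7 of them exceeded the higher REF array by more than 1 on the log2 scale on both arrays of at least 1 of the 2 labels. What they represent is not named in the tables used here, so they are given by their identifiers. The set RPTR-Sc-AJ002682-1_s_at read 13.67 and 13.49 on SO16, against 5.75 and 5.79 on PGM2 and 5.81 and 5.77 on REF, and its SO16 mean was 7.79 above REF. It differed between the labels by 7.81 ± 0.06 in limma over all probe sets (adjusted p = 3.39e-12).

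The other 6 sets were raised under both labels or under PGM2. RPTR-Sc-J01347-3_at read 11.21 and 11.08 on SO16, against 12.14 and 12.32 on PGM2 and 6.05 and 5.59 on REF. Its PGM2 mean was 6.41 above REF, and the labels differed by -1.08 ± 0.15 (adjusted p = 0.00636). The PGM2 means of RPTR-Sc-J01347-4_at, RPTR-Sc-J01347-2_at, RPTR-Sc-J01347-1_s_at, RPTR-Sc-U46493-1_s_at and RPTR-Sc-J01347-1_at were 5.85, 5.44, 3.54, 3.14 and 1.37 above REF. The 5 sets above REF under both labels were at 8.23 to 11.1 on the E62A arrays and 8.12 to 13.0 on the E62C arrays, and at 5.53 to 6.10 on the E62B arrays and 5.59 to 6.33 on the REF arrays. RPTR-Sc-J01347-3_at was at 10.52 and 10.52 on E62A and 12.97 and 12.87 on E62C. No cause was tested.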

How the results depend on the processing

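The 185 genes became 282 after quantile normalization, 332 with each array centred on its median, 72 when only the 4 compared arrays were fitted, 104 with array weights, 90 at an adjusted p under 0.01 and 18 with a difference of at least 1 on the log2 scale as well. The stricter thresholds shrink the count by construction, and for the others the cause was not tested. Leaving out each array gave 89 to 369 genes, the lowest without PGM2 replicate 1 and the highest without SO16 replicate 2, and leaving out SO16 replicate 2 and E62C replicate 2, the 2 arrays with weak hybridisation controls, gave 708 (102 higher and 606 lower). Counts within 1.5 times came from the fit without REF (146), without the E62C arrays (264), with a trend and robust prior (222), above background (185), without shared probe sets (176), with probe sets averaged per gene (187) and without SO16 replicate 1 (180). With the replicate number as a replicate block the count was 253, with the block in the SO16 and PGM2 arrays only 182 and with crossed numbers 272. The last 2 were chosen after seeing the data. Replicate differences of equal numbers correlated at -0.168 between PGM2 and SO16, and at -0.35 to 0.54 over the 15 pairs of labels. They were above 0.1 in 6 pairs and below -0.1 in 6. The 6 above 0.1 were all pairs among REF, E62B and PGM2 (0.47 to 0.53) and among E62A, E62C and SO16 (0.18 to 0.54). SO16 and PGM2 thus fell in different sets, and no pair across the sets was above 0.1. No label says that a number marks a shared batch, so the fit without the block was kept. Replicate spread shared within a set would leave arrays of different labels not independent, which that fit does not allow for. No called gene changed sign under these settings, which for the leave-outs follows from arrays that do not overlap. Levels near 6.0 or above 13 may be compressed, which was not tested. The 2 arrays per label, of which SO16 replicate 2 had weak hybridisation controls, limit every value.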

Other observations

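Some genes of the secretory pathway were looked up after their values were seen, so their number says nothing about the pathway. SIL1, a nucleotide exchange factor of the endoplasmic reticulum, lay at 9.57 and 9.49 on SO16, against 10.08 and 10.05 on PGM2 (-0.54 ± 0.06, adjusted p = 0.000746 in limma). EMP47, a cargo receptor, differed by -0.55 ± 0.08 (0.00189) and ALG12, a mannosyltransferase of N-glycan assembly, by -0.53 ± 0.08 (0.00319), and all 3 passed with every array left out. ERO1, an oxidase of disulfide formation, differed by -0.39 ± 0.08 (0.0204), a call that ended without SO16-1 (0.0646), PGM2-1 (0.159) or PGM2-2 (0.0804). The chaperone gene KAR2 did not pass (-0.25 ± 0.07, adjusted p = 0.084), nor did HAC1, the activator of the unfolded protein response (-0.06 ± 0.10).

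Neighbours of 2 genes deleted in SO16, GAL80 and LAP3, also differed between the labels. No gene adjoining MIG1, which is deleted there too, was called. Beside GAL80, SUR7 was at 10.85 and 10.74 on SO16, against 11.59 and 11.39 on PGM2 (-0.70 ± 0.12, adjusted p = 0.00621, and 0.0814 without PGM2-1), and AIM32 at 9.84 and 9.68 on SO16, against 9.14 and 9.11 on PGM2 (0.64 ± 0.09, 0.00172). Beside LAP3, NAR1 was at 10.38 and 10.39 on SO16, against 9.81 and 9.84 on PGM2 (0.57 ± 0.07, 0.00112), while KEX2 did not pass (-0.06 ± 0.08). Among all called genes, 12 pairs adjoin in assembly R64, and 8 of them differed in the same direction. These 12 include SUR7 with GAL80, GAL80 with AIM32, NAR1 with LAP3 and YLL053C with AQY2. No expected number was worked out, and 121 of the 185 called genes were lower, so neither count is read as a result.

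Of 3517 probe sets with no gene symbol, hybridisation and other control sets left out, 15 were called (0.427%), 9 higher and 6 lower on SO16, against 181 of all 10928 probe sets (1.66%). The array also holds fission yeast probe sets, and how many of the 3517 target budding yeast was not worked out. The shares are therefore not read against each other. The 15 include 3 reporter sets, of which RPTR-Sc-K01486-1_s_at read 7.85 and 7.91 on SO16, against 7.32 and 7.47 on PGM2 (0.48 ± 0.09, adjusted p = 0.0366 in limma). PRY1 and PRY2, sterol-binding paralogues, differed in opposite directions, by 0.62 ± 0.08 (adjusted p = 0.00107) and -0.47 ± 0.06 (0.00107).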
